A study of Mus musculus with 85 samples.

Results

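The blood-brain barrier is the property of brain capillaries that keeps most blood-borne molecules out of nervous tissue. The 9 genes described here encode parts of it, and they were taken from the expression tables by their gene symbols: Cldn5, Ocln, Tjp1, Slc2a1, Mfsd2a, Slco1c1, Abcb1a, Cav1 and Plvap. All 9 were found among 48479 Ensembl genes, each under 1 identifier. Their RNA was measured in 64 RNA-seq libraries of mouse brain cells that fall into 20 groups. A group carries a Nestin-Cre knockout, written nKO, of Mof, Kansl2 or Kansl3, which encode the acetyltransferase (gene symbol Kat8) and 2 further subunits of the chromatin-modifying NSL complex. Every nKO group is set against the groups labelled Cre control, and all of these brains were taken at E14.5, in the middle of embryonic life. Nestin drives Cre in neural progenitors and their progeny.

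Whole brain was measured in 3 Mof nKO, 3 Kansl2 nKO, 3 Kansl3 nKO and 3 Cre libraries. Endothelial cells isolated by fluorescence-activated cell sorting came from 4 Mof nKO, 3 Kansl2 nKO, 3 Kansl3 nKO and 4 Cre samples. Sorted pericytes, the mural cells that sit on capillaries, came from 3 Mof nKO, 3 Kansl2 nKO, 4 Kansl3 nKO and 4 Cre samples. Sorted neural cells came from 3 samples of each genotype, and sorted microglia from 3 Mof nKO and 3 Cre samples. In a separate experiment, wild-type pericytes grown from adult brain were given saturated fatty acids bound to albumin (C24:0 at 10 μM, C20:0 at 20 μM, and C16:0 and C14:0 at 200 μM each) in 3 cultures, or the ethanol and albumin vehicle in 3 cultures. The labels do not say whether samples came from separate animals or cultures, so a p-value measures the spread between these samples.

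Brain endothelial cells form the barrier by joining to their neighbours with continuous tight junctions, by carrying nutrients in and drugs out through dedicated transporters, and by holding vesicle traffic across the cell low. Claudin-5 (Cldn5) and occludin (Ocln) span the membrane at the tight junction, and ZO-1 (Tjp1) anchors them to the cytoskeleton from inside. GLUT1 (Slc2a1) brings glucose into the brain, MFSD2A carries lipids that contain docosahexaenoic acid and holds caveolar transport down, OATP1C1 (Slco1c1) carries thyroxine, and P-glycoprotein (Abcb1a) pumps lipophilic drugs back to the blood. Caveolin-1 (Cav1) builds caveolae, and PLVAP forms the diaphragms of fenestrae and caveolae. Plvap is present in immature brain vessels and is lost as the barrier matures, and pericytes take part in that maturation.

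The genes lie apart from one another in the genome, and a pair on chromosome 4 and a pair on chromosome 6 share a chromosome at separate places. In the RefSeq annotation of assembly GRCm38.p6, the tight junction genes Cldn5 (ENSMUSG00000041378), Ocln (ENSMUSG00000021638) and Tjp1 (ENSMUSG00000030516) span chr16:18776847-18778262, chr13:100496504-100552718 and chr7:65296165-65527850. The transporter genes Slc2a1 (ENSMUSG00000028645) and Mfsd2a (ENSMUSG00000028655) span chr4:119108745-119137330 and chr4:122946850-122961194. Slco1c1 (ENSMUSG00000030235) spans chr6:141524354-141570177 and Abcb1a (ENSMUSG00000040584) chr5:8567091-8748575. The vesicle genes Cav1 (ENSMUSG00000007655) and Plvap (ENSMUSG00000034845) span chr6:17306335-17341328 and chr8:71497753-71511806. The tables give reads summed over each gene.

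The libraries held between 8444551 and 12641817 reads in genes for whole brain, 10048082 to 25260285 for endothelial cells, 1572515 to 5852542 for pericytes, 5687012 to 12665665 for neural cells, 2215701 to 9817084 for microglia and 42623429 to 51854152 for cultured pericytes. Levels below are CPM, a gene's count scaled by its library's total reads in genes, and libraries are named as in the labels, with K2 and K3 for Kansl2 and Kansl3. Kat8 fell in whole brain under all 3 knockouts, with log2 fold changes against Cre of -0.94 ± 0.13 under Mof nKO (± SE, adjusted p = 0.00234), -0.64 ± 0.13 under labelled Kansl2 nKO (adjusted p = 0.0027) and -0.89 ± 0.14 under labelled Kansl3 nKO (adjusted p = 0.000317). The other targets were not lower in whole brain of the groups labelled for them. Kansl2 was higher, by 0.46 ± 0.10 (adjusted p = 0.00357), in the group labelled Kansl2 nKO. It was also higher under Mof nKO (0.36 ± 0.10, adjusted p = 0.0466, edgeR), and averaged 42.0 CPM in the group labelled Kansl3 nKO against 32.6 in Cre. Kansl3 differed by 0.28 ± 0.11 in the group labelled Kansl3 nKO and did not pass (adjusted p = 0.0602). In sorted endothelial cells and pericytes Kat8 did not pass under any knockout. In sorted neural cells Kat8 averaged 9.71 CPM in Mof nKO, 18.8 in labelled Kansl2 nKO and 15.5 in labelled Kansl3 nKO, against 31.8 in Cre. There Kansl2 averaged 44.6 in labelled Kansl2 nKO against 46.8 in Cre, and Kansl3 84.8 in labelled Kansl3 nKO against 63.7 in Cre. The counts cover whole genes and the labels do not name the deleted exons, so these totals cannot check a partial deletion. The Kansl2 and Kansl3 nKO groups are therefore written with the word labelled from here on. The summed level of 14 endothelial markers was 9242 to 13104 CPM in endothelial libraries, 339.5 to 815.7 in pericyte libraries and 135.5 to 256.1 in whole brain. That of 12 pericyte markers was 6221 to 15067 in sorted pericytes and 489.7 to 922.3 in endothelial libraries.

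Among Cre and vehicle libraries, 8 of the 9 genes had their highest mean level in sorted endothelial cells, and Cav1 had it in cultured pericytes. In endothelial cells Cldn5 averaged 2242 ± 369 CPM (SD, n = 4), against 19.5 in sorted pericytes, 18.9 in whole brain, 6.42 in microglia, 0.0653 in neural cells and 0 in cultured pericytes. Plvap averaged 491 CPM in endothelial cells, 331 times its pericyte mean of 1.49 and 372 times its whole-brain mean of 1.32. Both genes were far lower in every other source than in the endothelial sort. Slc2a1 averaged 3547 ± 983 in endothelial cells, then 152 in cultured pericytes, 93.2 in microglia, 58.0 in sorted pericytes, 43.4 in whole brain and 21.6 in neural cells. Neighbours among the 4 middle groups overlapped, but the vehicle cultures (147 to 156) lay above all pericyte (41.0 to 93.8) and whole-brain libraries (35.2 to 48.5), and microglia (60.0 to 155) above whole brain. Mfsd2a averaged 938 ± 279 in endothelial cells, then 25.3 in neural cells, 23.5 in whole brain and 19.8 in sorted pericytes, 3 means that overlapped, and stood at 2.09 in culture and 1.56 in microglia.

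The remaining genes spread more widely. Slco1c1 averaged 335.04 CPM in endothelial cells against 6.64 in whole brain and 4.86 in pericytes. Abcb1a averaged 131 in endothelial cells, against 7.15 in cultured pericytes, 3.98 in whole brain and 0.501 in sorted pericytes. Ocln averaged 86.4 in endothelial cells and 4.83 in sorted pericytes, with overlapping libraries. Tjp1, which other epithelial and neural junctions also use, was the most even of the set: its endothelial mean of 250 was 1.41 times that of sorted pericytes (178) and 3.27 times that of whole brain (76.5). Cav1 averaged 248 in cultured pericytes, 134.2 in endothelial cells, 17.3 in sorted pericytes, 8.99 in whole brain and 6.74 in neural cells. Sorted vessel cells and microglia were made into libraries with a low-input kit and the other samples with another kit, so cell type and kit cannot be told apart where these differ and no test between cell types was made.

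**Figure D1:**
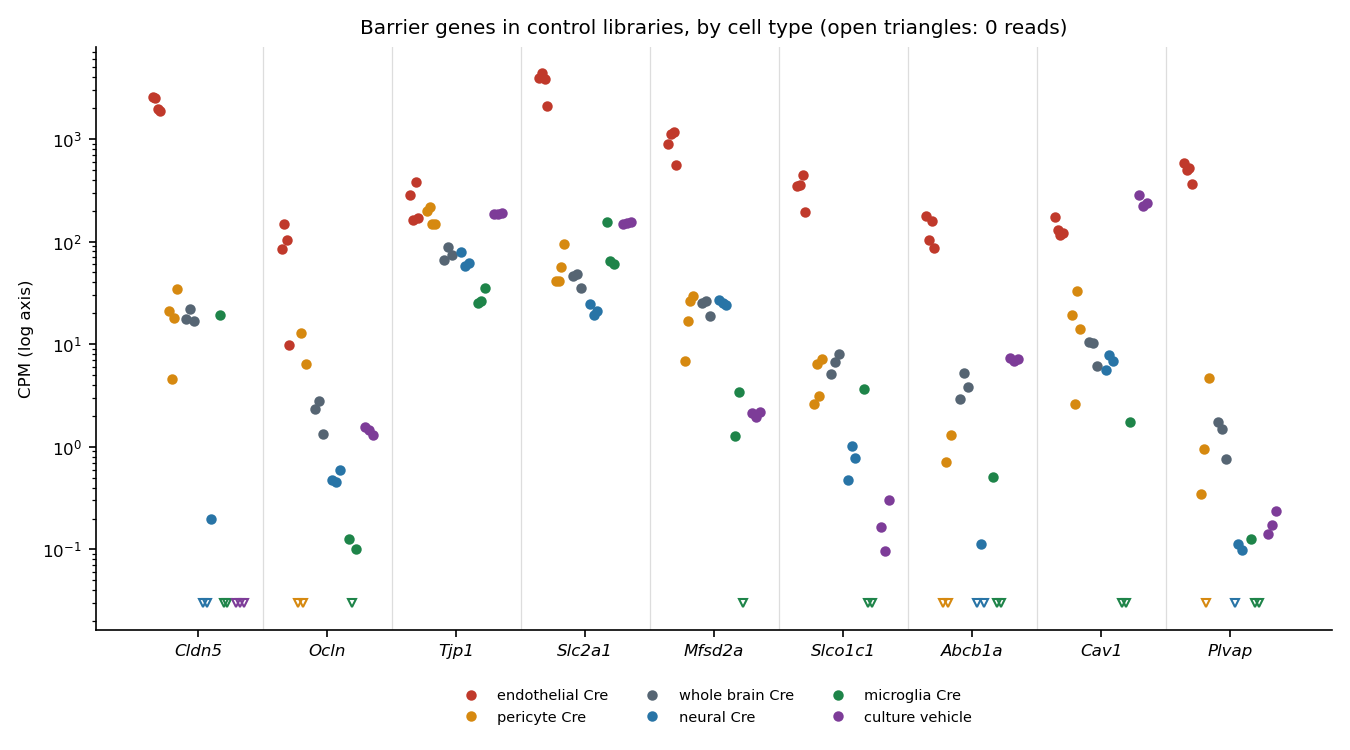
Level of each barrier gene in the Cre or vehicle libraries of 6 sources, in CPM on a log scale. Points are single libraries, and open triangles at the lower edge are libraries with 0 reads. The mean is highest in endothelial cells for 8 genes and in cultured pericytes for Cav1, though single endothelial libraries of Tjp1 and Ocln lie below libraries of other sources, and Tjp1 varies least between sources.

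In sorted endothelial cells the question was whether barrier genes differ in vessels of a brain whose neural cells lack an NSL subunit. None of the 9 genes passed an adjusted p of 0.05 (limma, Benjamini-Hochberg over all genes tested) under any knockout, and neither did any other gene: the share called was 0.0 percent of 17152 genes under Mof nKO, 0.0 percent of 16649 under labelled Kansl2 nKO and 0.0 percent of 16466 under labelled Kansl3 nKO. By limma, 1482, 975 and 1055 genes had an unadjusted p under 0.05, of which 0, 1 and 0 were barrier genes, and edgeR on the recovered reads called 0 in each. Fold changes in sorted cells are on the scale of log2(size-factor-normalized value + 1), and the larger ones below are given with their 95% interval.

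Of the junction genes, Cldn5 had much the same level in all 4 genotypes. It had 1831, 1991, 2203 and 2183 CPM in Mof nKO, 1763, 2588 and 1878 in labelled Kansl2 nKO, 2530, 2400 and 2156 in labelled Kansl3 nKO, and 2589, 2529, 1961 and 1887 in Cre cells. The 4 groups overlapped. The log2 fold changes were -0.15 ± 0.13, -0.15 ± 0.23 and 0.05 ± 0.14 (± SE; adjusted p = 0.745, 0.954 and 0.949, limma) under Mof, labelled Kansl2 and labelled Kansl3 nKO. Ocln had 80.2, 90.0, 130 and 99.2 CPM in Mof nKO, 73.6, 21.7 and 72.0 in labelled Kansl2 nKO, 68.2, 114 and 159 in labelled Kansl3 nKO, and 83.9, 148.97, 103 and 9.85 in Cre cells. Its fold changes of 0.68 ± 0.64, -0.33 ± 0.77 and 0.81 ± 0.75 hang on the single Cre library at 9.85: without it they became -0.13, -1.14 and -0.0012. That library, Cre130, also had the lowest Pecam1 level of the Cre endothelial libraries (529 CPM, others 981 to 1135). Its mitochondrial reads were 7.69%, against 1.11 to 2.18% in the other Cre endothelial libraries, its 10 most abundant genes took 12.2% of reads against 3.82 to 4.83%, and its endothelial markers summed to 9242 CPM against 12305 to 12762. It was also the lowest Cre library for Mfsd2a and Slc2a1, and the part of these quality measures in the values was not tested. The labelled Kansl2 nKO library K2-196, with the lowest Ocln of its group, had Pecam1 at 452. The 10 most abundant genes of K2-196 took 9.33% of reads, against 3.89 and 4.88% in the other libraries of its group. Its endothelial markers summed to 9746 CPM against 13104 and 12207, and its neural progenitor markers to 2076 against 865 and 1364. The part of these measures in its values was not tested. Tjp1 had 273, 455, 323 and 429 in Mof nKO, 360, 232 and 291 in labelled Kansl2 nKO, 265, 314 and 268 in labelled Kansl3 nKO, and 284, 163, 384 and 169 in Cre cells. Its largest difference was 0.59 ± 0.27 under Mof nKO (unadjusted p = 0.053, adjusted p = 0.578), and the groups overlapped.

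Of the transporters, Mfsd2a was the only barrier gene with an unadjusted p under 0.05. It had 628, 639, 896 and 836 CPM in Mof nKO, 587, 364 and 446 in labelled Kansl2 nKO, 711, 854 and 682 in labelled Kansl3 nKO, and 902, 1124, 1169 and 557 in Cre cells. The labelled Kansl2 nKO libraries lay below 3 of the 4 Cre libraries, and library K2-188 at 587 lay just above Cre130 at 557. The log2 fold change was -1.01 ± 0.26 (95% interval -1.58 to -0.44, unadjusted p = 0.0024), with an adjusted p of 0.707, and it was -1.06 without Cre130 and K2-196, a comparison added after the data were seen. The authors' deposited table gives -1.03 with an adjusted p of 0.0579. Under Mof nKO and labelled Kansl3 nKO the differences were -0.32 ± 0.21 and -0.31 ± 0.21, with intervals of -0.77 to 0.13 and -0.78 to 0.17. Summed pericyte markers also stood lower in the labelled Kansl2 nKO endothelial libraries (490 to 727 CPM) than in Cre (731 to 922), as did 8 neuron markers (73.3 to 122 against 153 to 334). The neuron markers also lay below Cre in labelled Kansl3 nKO (70.4 to 138), and were at 82.8 to 176 in Mof nKO. The part of these markers in the Mfsd2a values was not tested.

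Slc2a1 had 2274, 3095, 3166 and 2875 CPM in Mof nKO, 3261, 1461 and 2926 in labelled Kansl2 nKO, 2951, 3230 and 2938 in labelled Kansl3 nKO, and 3881, 4342, 3855 and 2112 in Cre cells. The same 2 libraries, K2-196 and Cre130, were the lowest of their groups, and the fold changes of -0.31 ± 0.19, -0.54 ± 0.30 and -0.20 ± 0.19 did not pass (adjusted p = 0.655, 0.887 and 0.854). Slco1c1 had 128, 199, 326 and 518 in Mof nKO, 243, 148 and 259 in labelled Kansl2 nKO, 306, 350 and 257 in labelled Kansl3 nKO, and 350.9, 353, 444 and 192 in Cre cells. Its difference under labelled Kansl2 nKO was -0.64 ± 0.29, with an interval of -1.27 to 0.00 (adjusted p = 0.855). Abcb1a ranged from 79.2 to 133.9 in all knockout libraries and from 87.4 to 177 in Cre, with log2 fold changes of -0.32, -0.35 and -0.28 that did not pass. Abcb1a has a near-identical paralog, Abcb1b, and reads that fit both could be split between them, so both are uncertain. Abcb1b had 7.31, 14.03 and 10.9 CPM in labelled Kansl2 nKO endothelial cells against 4.52, 0.641, 0.475 and 3.88 in Cre cells (log2 fold change 2.64 ± 1.09, unadjusted p = 0.033, adjusted p = 0.831).

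Of the vesicle genes, Cav1 had 189, 182 and 177 CPM in labelled Kansl3 nKO endothelial cells, against 171.7, 129, 115 and 121 in Cre cells. All 3 libraries lay above all 4 Cre libraries, a pattern that 4.56 percent of tested genes showed, and the log2 fold change of 0.43 ± 0.20 (interval -0.01 to 0.87) did not pass (adjusted p = 0.778). In Mof nKO, Cav1 had 106, 84.0, 209 and 171.9, and in labelled Kansl2 nKO it had 135, 37.7 and 137, and both groups overlapped Cre. Plvap had 445, 520, 476 and 470 in Mof nKO, 693, 243 and 895 in labelled Kansl2 nKO, 606, 508 and 772 in labelled Kansl3 nKO, and 587, 499, 518 and 360 in Cre cells. The groups overlapped and the differences were -0.06, 0.11 and 0.32 ± 0.19. Over the 9 genes, 7 log2 fold changes were below 0 and 2 above under Mof nKO, 7 and 2 under labelled Kansl2 nKO, and 4 and 5 under labelled Kansl3 nKO. Their medians were -0.15, -0.35 and 0.05, beside medians over all tested genes of 0.09, 0.06 and 0.03.

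**Figure D2:**
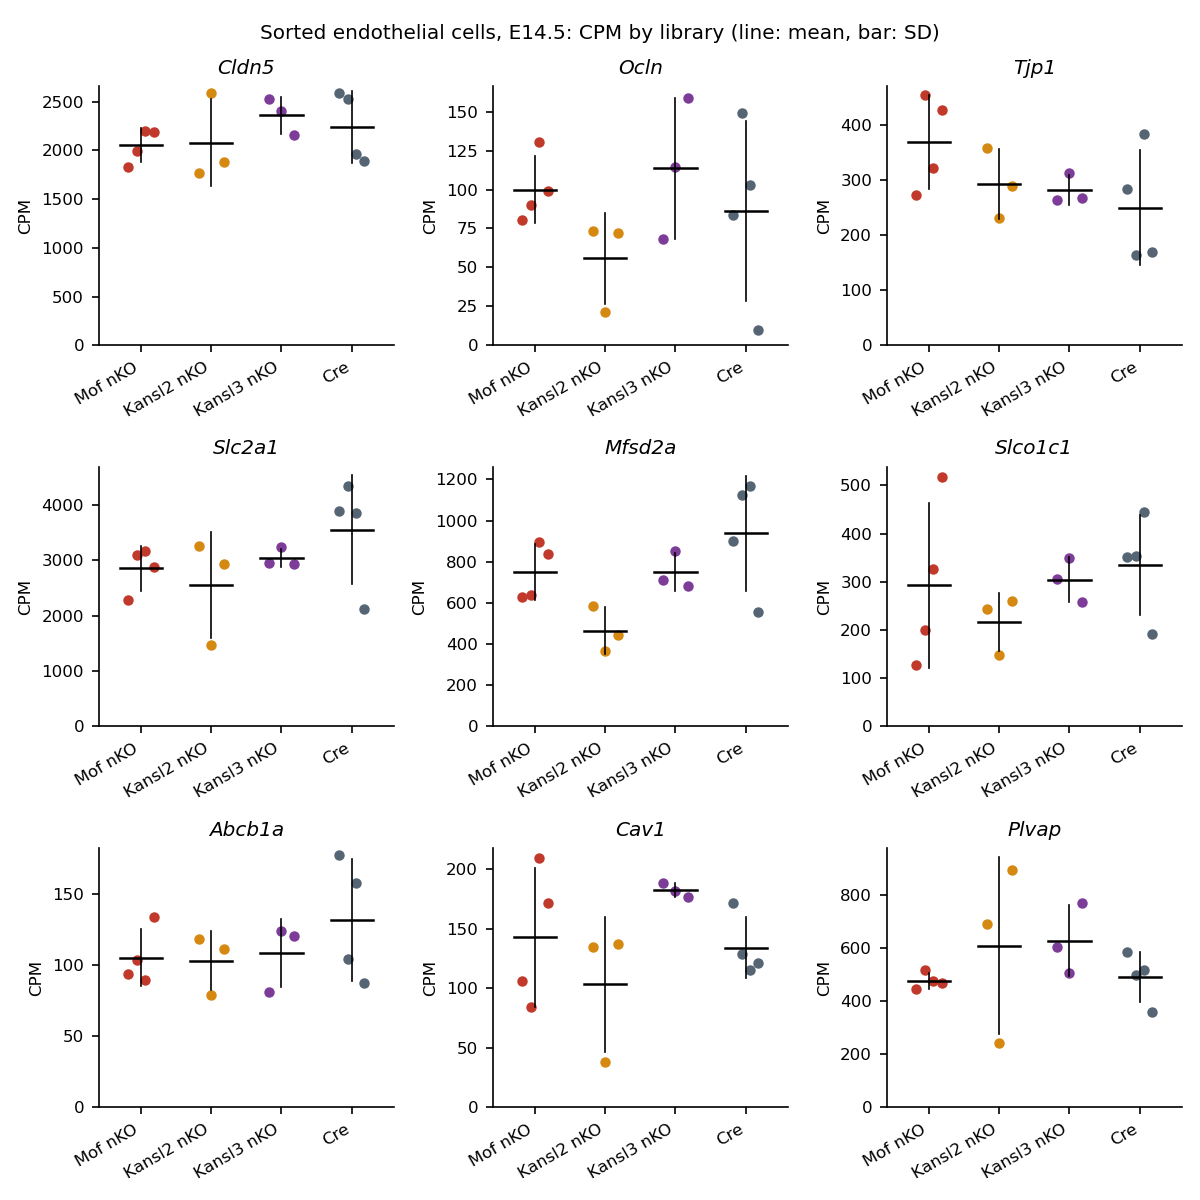
Level of each barrier gene in the 14 sorted endothelial libraries, in CPM. Points are libraries, lines group means and bars SD for Mof nKO, Kansl2 nKO, Kansl3 nKO and Cre, by label. The Mfsd2a points of Kansl2 nKO sit between 364 and 587, below 3 of the 4 Cre points, and 1 Cre point for Ocln sits near 10 CPM.

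Among the 14 endothelial libraries, the barrier genes that varied most alike were Mfsd2a and Slc2a1 (Pearson r = 0.815 of log2 levels), then Mfsd2a and Slco1c1 (0.748) and Slc2a1 and Ocln (0.734). Cldn5 and Tjp1 were the least alike, at -0.293. These values describe libraries of 4 genotypes that also differ in purity and depth, and carry no test. Of 10713 genes compared, Gpcpd1 (0.923), Srsf6 (0.909) and Bcl11a (0.906) tracked Mfsd2a most closely, Ppdpf (0.903), Bfar (0.881) and Psenen (0.863) tracked Cldn5, and Abhd4 (0.893), Kctd10 (0.883) and Usp10 (0.867) tracked Plvap. Further barrier genes were read from 4 lists. None of 16 junction partners, 24 transporters, 8 caveolar genes and 21 genes of Wnt signaling and endothelial transcription factors tested under Mof nKO passed, and none of 14, 24, 9 and 21 under labelled Kansl2 nKO or of 14, 24, 8 and 21 under labelled Kansl3 nKO. The 24 transporters had a median log2 fold change of -0.34 under labelled Kansl2 nKO, where 8 of 24 were above 0, against 0.05 under Mof nKO and 0.02 under labelled Kansl3 nKO.

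In sorted pericytes, none of the barrier genes that could be tested passed: 0 of 6 under Mof nKO, where 0.0 percent of 14112 genes were called, 0 of 6 under labelled Kansl2 nKO (2.2 percent of 14402) and 0 of 7 under labelled Kansl3 nKO (3.11 percent of 14325). Under Mof nKO limma gave 1888 genes an unadjusted p under 0.05, 1 of them a barrier gene, and edgeR called 9 genes, none of them a barrier gene. Under labelled Kansl2 nKO, Cldn5 and Mfsd2a had the largest differences. Cldn5 had 9.43, 9.54 and 14.8 CPM in Mof nKO, 2.12, 4.99 and 6.67 in labelled Kansl2 nKO, 1.73, 4.27, 0.311 and 14.7 in labelled Kansl3 nKO, and 21.2, 4.53, 18.2 and 34.3 in Cre pericytes. A single Cre library, at 4.53, lay within the range of the knockouts. The log2 fold changes were -1.80 ± 0.64 under labelled Kansl2 nKO (interval -3.17 to -0.43, adjusted p = 0.159) and -2.39 ± 0.87 under labelled Kansl3 nKO (interval -4.25 to -0.53, adjusted p = 0.15). Without library Cre_139, the one at 4.53, Cldn5 passed under labelled Kansl2 nKO (-2.38, adjusted p = 0.046). The authors' deposited table calls Cldn5 lower under labelled Kansl2 nKO, with a log2 fold change of -1.20 and an adjusted p of 0.031. Cldn5 is an endothelial gene. The endothelial marker sum was 340 to 612 CPM in Mof nKO pericytes, 609 to 802 in labelled Kansl2 nKO and 457 to 603 in labelled Kansl3 nKO. In Cre pericytes it was 612 to 816. Pecam1, an endothelial marker, was 26.1 to 36.1 in Mof nKO, 22.9 to 47.4 in labelled Kansl2 nKO and 10.1 to 13.1 in labelled Kansl3 nKO, against 17.0 to 25.4 in Cre. Of the endothelial markers tested, 3 of 12 had log2 fold changes above 0 under Mof nKO, with a median of -0.47. The counts were 5 of 11 (median -0.05) under labelled Kansl2 nKO and 2 of 12 (median -0.39) under labelled Kansl3 nKO. The part of carried-over endothelial RNA in the Cldn5 values was not tested.

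Mfsd2a had 1.70, 4.99 and 10.5 CPM in labelled Kansl2 nKO pericytes, against 6.84, 16.7, 26.3 and 29.4 in Cre pericytes (log2 fold change -1.81 ± 0.63, adjusted p = 0.149). In the same libraries 8 neural progenitor markers summed to 1508 to 1914 CPM, against 2922 to 3897 in Cre, and 4 of the 8 fell. Their part in the Mfsd2a value was not tested. In Mof nKO it had 26.3, 8.27 and 18.9, and in labelled Kansl3 nKO 31.4, 13.5, 14.3 and 28.2, values that overlapped those of Cre. Tjp1 was lower in every Mof nKO library (83.9, 113 and 130) and in every labelled Kansl2 nKO library (136, 146 and 145) than in the Cre libraries (196, 219, 148.99 and 147). Such a separation was shown by 8.82 percent of genes under Mof nKO and 9.64 percent under labelled Kansl2 nKO, and the fold changes of -0.58 ± 0.21 (adjusted p = 0.28) and -0.24 ± 0.17 (adjusted p = 0.474) did not pass. Under labelled Kansl3 nKO Tjp1 had 92.2, 161, 121 and 112, with a fold change of -0.49 ± 0.19 (adjusted p = 0.174). In Mof nKO pericytes the pericyte marker sum was also lower, 6221 to 9107 against 11789 to 15067 in Cre, and its part in the Tjp1 value was not tested.

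Slc2a1, the remaining transporter with substantial reads in pericytes, ranged from 30.5 to 54.8 CPM in Mof nKO, 35.2 to 55.1 in labelled Kansl2 nKO and 33.4 to 71.1 in labelled Kansl3 nKO, against 41.0 to 93.8 in Cre, and did not separate. Slco1c1 had 11.5, 6.93 and 12.3 in labelled Kansl2 nKO against 2.63, 6.43, 3.14 and 7.22 in Cre pericytes (1.17 ± 0.57, unadjusted p = 0.061). Cav1 had 4.55, 0.636 and 19.2 in Mof nKO, 24.2, 6.66 and 2.46 in labelled Kansl2 nKO, 20.0, 24.1, 20.9 and 20.0 in labelled Kansl3 nKO, and 19.5, 2.62, 33.0 and 14.2 in Cre. Each knockout overlapped Cre, with fold changes of -1.43, -0.68 and 0.81 that did not pass. Plvap ranged from 0 to 6.93, Abcb1a reached at most 1.95, and Ocln was at 0 in all 6 Mof and labelled Kansl2 nKO libraries, where 3 reads mark the limit of what a count of 0 allows, at 15.1, 0, 5.92 and 0 in labelled Kansl3 nKO, and at 0, 12.9, 0 and 6.44 in Cre. Of the listed genes, the efflux pump gene Abcg2 rose under labelled Kansl2 nKO (0.83, adjusted p = 0.034), the one call among 21 transporters. Under labelled Kansl3 nKO 3 of 22 transporters fell, the arginine carrier Slc7a1 (-1.09), the lipoprotein receptor Lrp1 (-1.22) and the insulin receptor Insr (-1.50), and of 17 Wnt and transcription factor genes Tspan12 rose (0.83) while Foxc1 (-1.25) and Axin2 (-0.81) fell. Over all genes tested, 137 of 14402 rose and 181 fell under labelled Kansl2 nKO, and 269 of 14325 rose and 177 fell under labelled Kansl3 nKO.

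In whole brain, where vessel cells are a small part of the tissue, Plvap was the single barrier gene that passed. In such bulk samples a change in the share of endothelial cells and a change in RNA per endothelial cell cannot be told apart. Plvap had 1.14, 1.48 and 1.57 CPM in Mof nKO, 4.03, 1.54 and 2.59 in labelled Kansl2 nKO, 1.07, 1.68 and 1.22 in labelled Kansl3 nKO, and 1.73, 1.47 and 0.759 in Cre brains. These rest on 51, 13 and 23 reads in labelled Kansl2 nKO and 20, 17 and 8 reads in Cre, and the labelled Kansl2 nKO library at 1.54 lay inside the Cre range. Plvap rose under labelled Kansl2 nKO by 1.07 ± 0.35 on the log2 scale (interval 0.32 to 1.82, adjusted p = 0.0358, edgeR), where 26.6 percent of 16290 genes were called. The call was lost without library K2_63 (0.71, adjusted p = 0.20), K2_70, Cre_18 or Cre_19, and by DESeq2 (adjusted p = 0.061). In this comparison 14 of 14 endothelial markers had log2 fold changes above 0, with a median of 0.40, and 5 of them rose. Of 12 pericyte markers 11 were above 0, with a median of 0.47, and 3 rose. Library K2_63 stood apart from the other 11 whole-brain libraries: summed choroid plexus markers were 321 CPM against at most 62.2 elsewhere, fibroblast markers 218 against at most 125, endothelial markers 256 against at most 175, and mitochondrial reads 9.9% against 14.4 to 25.3%. The part of these differences in the Plvap value was not tested beyond scaling all libraries to the endothelial marker sum, under which Plvap was 0.63 higher (adjusted p = 0.18). Between knockouts Plvap differed by 0.88 ± 0.35 for labelled Kansl2 nKO over Mof nKO (adjusted p = 0.128) and by -0.999 ± 0.36 for labelled Kansl3 nKO over labelled Kansl2 nKO (adjusted p = 0.211), and no barrier gene passed in the 3 comparisons of knockouts, where 8.65, 13.5 and 0.0368 percent of genes were called for labelled Kansl2 over Mof, labelled Kansl3 over Mof and labelled Kansl3 over labelled Kansl2 nKO.

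Cav1 was lower in most knockout brains but did not pass. It had 3.999, 3.96 and 6.73 CPM in Mof nKO, 7.83, 2.13 and 4.85 in labelled Kansl2 nKO, 6.40, 3.98 and 3.45 in labelled Kansl3 nKO, and 10.5, 10.3 and 6.17 in Cre brains. Of the 9 knockout libraries 3 reached the lowest Cre value and none the other 2. The log2 fold changes were -0.76 ± 0.33, -0.82 ± 0.33 and -0.89 ± 0.34, with adjusted p of 0.175, 0.0841 and 0.0549 under Mof, labelled Kansl2 and labelled Kansl3 nKO. The authors' deposited tables give -0.75, -0.81 and -0.89 with adjusted p of 0.023, 0.0037 and 0.000997, and so call Cav1 in all 3. These comparisons share their 3 Cre libraries. With the fit used here, Cav1 passed under labelled Kansl2 nKO without K2_63 (-1.28, adjusted p = 0.020) and under labelled Kansl3 nKO without Cre_19 (-1.09, 0.031) or K3_117 (-1.16, 0.039). No barrier gene was called under Mof nKO, where 5.97 percent of genes were, or under labelled Kansl3 nKO, where 34.0 percent were.

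Of the transporters, Slc2a1 and Mfsd2a were lower in labelled Kansl3 nKO brains without passing. Slc2a1 had 36.3, 36.8 and 44.3 CPM in Mof nKO, 51.4, 29.5 and 42.3 in labelled Kansl2 nKO, 32.7, 31.9 and 31.4 in labelled Kansl3 nKO, and 46.4, 48.5 and 35.2 in Cre brains. All 3 labelled Kansl3 nKO libraries lay below all 3 Cre libraries, as did 29.6 percent of genes, and the difference was -0.36 ± 0.14 (adjusted p = 0.0652). Mfsd2a had 21.0, 17.8 and 12.99 in labelled Kansl3 nKO, against 25.5, 26.3 and 18.8 in Cre (-0.37 ± 0.16, adjusted p = 0.0933), and differed by -0.02 and -0.22 under Mof and labelled Kansl2 nKO. Without Cre_19, the lowest Cre library for both, Slc2a1 (-0.48, adjusted p = 0.026) and Mfsd2a (-0.50, 0.039) passed under labelled Kansl3 nKO. Slco1c1 ranged from 4.55 to 8.70 in the knockouts and from 5.11 to 8.06 in Cre. Abcb1a ranged from 2.13 to 5.55 in the knockouts and from 2.94 to 5.20 in Cre, while its paralog Abcb1b rose under labelled Kansl3 nKO, with 2.13, 2.72 and 3.96 CPM against 0.606, 0.520 and 0.0949 in Cre brains (2.87 ± 0.49, adjusted p = 0.00069). Abcb1b also stood at 2.69, 2.61 and 2.26 in labelled Kansl2 nKO brains, and at 1.52, 0.594 and 0.437 in Mof nKO. It was at 35.1, 13.8 and 13.9 CPM in Cre microglia, and 10 microglia markers summed to 95.9 to 154 CPM in labelled Kansl2 nKO and 107 to 137 in labelled Kansl3 nKO brains, against 24.8 to 28.0 in Cre, with all 10 called higher in both. Their part in the Abcb1b value was not tested.

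The junction genes did not separate from Cre under any knockout. Cldn5 had 17.3, 13.9 and 23.4 CPM in Mof nKO, 29.0, 14.3 and 22.6 in labelled Kansl2 nKO, 17.2, 15.0 and 12.99 in labelled Kansl3 nKO, and 17.7, 22.03 and 17.0 in Cre brains, with fold changes of 0.06, 0.24 and -0.25. Ocln had 5.62, 2.49 and 2.82 in labelled Kansl2 nKO against 2.34, 2.77 and 1.33 in Cre (0.79 ± 0.33, adjusted p = 0.0906), with its highest value in library K2_63. Summed choroid plexus, fibroblast and endothelial markers were also highest in K2_63, and their part in the Ocln value was not tested. Tjp1 had 68.1, 66.9 and 62.6 in Mof nKO, 113, 71.5 and 73.7 in labelled Kansl2 nKO, 88.4, 69.4 and 83.2 in labelled Kansl3 nKO, and 66.2, 88.97 and 74.4 in Cre. Set against Mof nKO, Tjp1 differed by 0.29 ± 0.12 in labelled Kansl2 nKO (adjusted p = 0.159) and by 0.24 ± 0.12 in labelled Kansl3 nKO (adjusted p = 0.197), and neither passed. Of the listed genes, 2 of 22 transporters rose and 1 fell under Mof nKO, 7 rose and 2 fell under labelled Kansl2 nKO, and 9 rose and 0 fell under labelled Kansl3 nKO. Over all 16290 genes tested, 314 rose and 658 fell under Mof nKO (5.97 percent called). Under labelled Kansl2 nKO 1688 rose and 2644 fell (26.6 percent), and under labelled Kansl3 nKO 2478 rose and 3065 fell (34.0 percent). Among the transporters called was Slc3a2, the heavy chain of the large amino acid transporter, at 0.48, 0.86 and 0.54 in that order. Its light chain Slc7a5 rose by 0.92 under labelled Kansl2 nKO and 0.57 under labelled Kansl3 nKO. Of 18 junction partners, 1 rose and 1 fell under Mof nKO, 3 rose under labelled Kansl2 nKO, including VE-cadherin (Cdh5, 0.88), and 5 rose and 2 fell under labelled Kansl3 nKO, including the paracingulin gene Cgnl1 (0.86). Cdh5 is also among the 14 endothelial markers, all 14 of which were above 0 under labelled Kansl2 nKO, with 5 called higher. The part of endothelial content in the Cdh5 value was not tested.

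**Figure D3:**
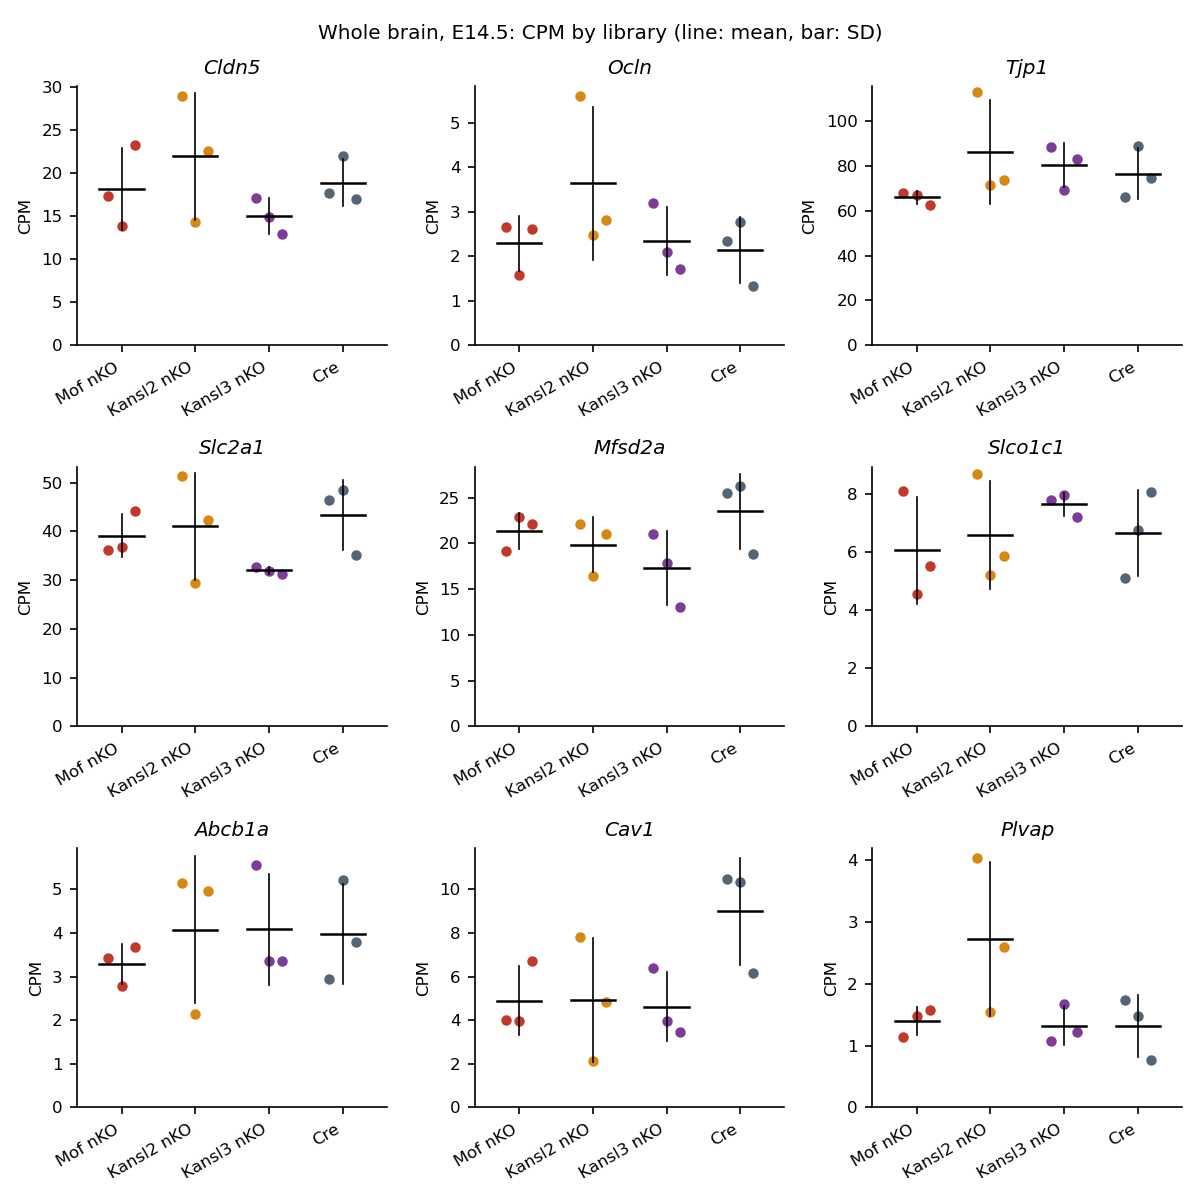
Level of each barrier gene in the 12 whole-brain libraries, in CPM, for Mof nKO, Kansl2 nKO, Kansl3 nKO and Cre, by label. Points are libraries, lines group means and bars SD. The Plvap mean of Kansl2 nKO is raised by library K2_63 at 4.03, and the Slc2a1 points of Kansl3 nKO, at 31.4 to 32.7, lie below the 3 Cre points.

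Sorted neural cells, in which the Cre acts, held few reads of the endothelial members: Cldn5 had 0 to 7 reads a library, Plvap 0 to 3 and Abcb1a 0 to 1, and the endothelial marker sum was 5.63 to 12.1 CPM. The genes with enough reads could be tested, and several were called in comparisons where many genes were. Under Mof nKO 1 of 4 passed (36.5 percent of all genes), under labelled Kansl2 nKO 3 of 4 (42.2 percent) and under labelled Kansl3 nKO 4 of 5 (55.2 percent). Fold changes here are on the authors' size-factor scale, and differ from ratios of the CPM levels. The 10 most abundant genes took 25.9 to 43.1% of reads in Mof nKO libraries, 16.2 to 41.7% in labelled Kansl2 nKO, 15.8 to 17.5% in labelled Kansl3 nKO and 21.7 to 33.6% in Cre.

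With the fit used here, Mfsd2a rose under all 3 knockouts. It had 36.4, 25.7 and 36.0 CPM in Mof nKO, 28.2, 26.0 and 38.8 in labelled Kansl2 nKO, 29.9, 35.4 and 35.1 in labelled Kansl3 nKO, and 27.0, 25.0 and 23.9 in Cre cells. The labelled Kansl3 nKO libraries all lay above the Cre libraries, as did 34.8 percent of genes, while 1 library at 25.7 in Mof nKO and 1 at 26.0 in labelled Kansl2 nKO lay among them. The log2 fold changes were 0.63 ± 0.10 (adjusted p = 0.000114), 0.45 ± 0.10 (adjusted p = 0.00201) and 0.26 ± 0.10 (adjusted p = 0.0367, limma), against Cre libraries that the 3 comparisons share. Slc2a1 rose under labelled Kansl2 nKO (0.36 ± 0.11, adjusted p = 0.0136) and labelled Kansl3 nKO (0.30 ± 0.11, adjusted p = 0.0303), with 23.6, 22.2 and 27.6 and with 25.5, 33.0 and 29.0 CPM against 24.8, 19.03 and 21.1 in Cre cells. Under Mof nKO it had 20.8, 18.3 and 22.6 (0.21 ± 0.10, adjusted p = 0.115). Under labelled Kansl3 nKO the authors' deposited DESeq2 values call neither Mfsd2a (0.27, adjusted p = 0.0858) nor Slc2a1 (0.30, adjusted p = 0.0728). They do call Mfsd2a under Mof and labelled Kansl2 nKO, and Slc2a1 under labelled Kansl2 nKO. Tjp1 rose under labelled Kansl3 nKO, with 109, 105 and 95.4 against 79.2, 58.1 and 61.6 in Cre cells (0.51 ± 0.08, adjusted p = 9.18e-05), and under labelled Kansl2 nKO, with 61.3, 56.4 and 101 (0.28 ± 0.10, adjusted p = 0.0277). Under Mof nKO it did not pass (-0.01). Cav1 fell under labelled Kansl3 nKO, with 4.74, 3.73 and 5.74 against 5.56, 7.82 and 6.86 in Cre cells (-0.64 ± 0.23, adjusted p = 0.0247), and differed by -0.14 and -0.42 under Mof and labelled Kansl2 nKO without passing.

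Several of these calls rest on single libraries. Under labelled Kansl3 nKO, the Mfsd2a, Slc2a1 and Cav1 calls were each lost when Cre188 or K3_356 was left out, Mfsd2a also without Cre183 or K3_366, and Slc2a1 and Cav1 also without Cre184. Under labelled Kansl2 nKO, the Tjp1 call was lost without Cre184, Cre188 or K2_351, and Slc2a1 without Cre184. Mfsd2a under Mof and labelled Kansl2 nKO and Tjp1 under labelled Kansl3 nKO passed whichever library was left out. Of the listed genes, Slc7a5 rose by 1.21, 1.54 and 1.73 under Mof, labelled Kansl2 and labelled Kansl3 nKO, while the membrane scaffold flotillin-1 (Flot1) fell by 0.85, 0.66 and 0.90. Transporters passed upward in 9 of 17, 7 of 17 and 12 of 19 and downward in 2, 2 and 2. Over all genes tested, 2665 of 13724 rose and 2346 fell under Mof nKO, and 2796 of 13903 rose and 3068 fell under labelled Kansl2 nKO. Under labelled Kansl3 nKO 3842 of 14534 rose and 4181 fell.

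**Figure D4:**
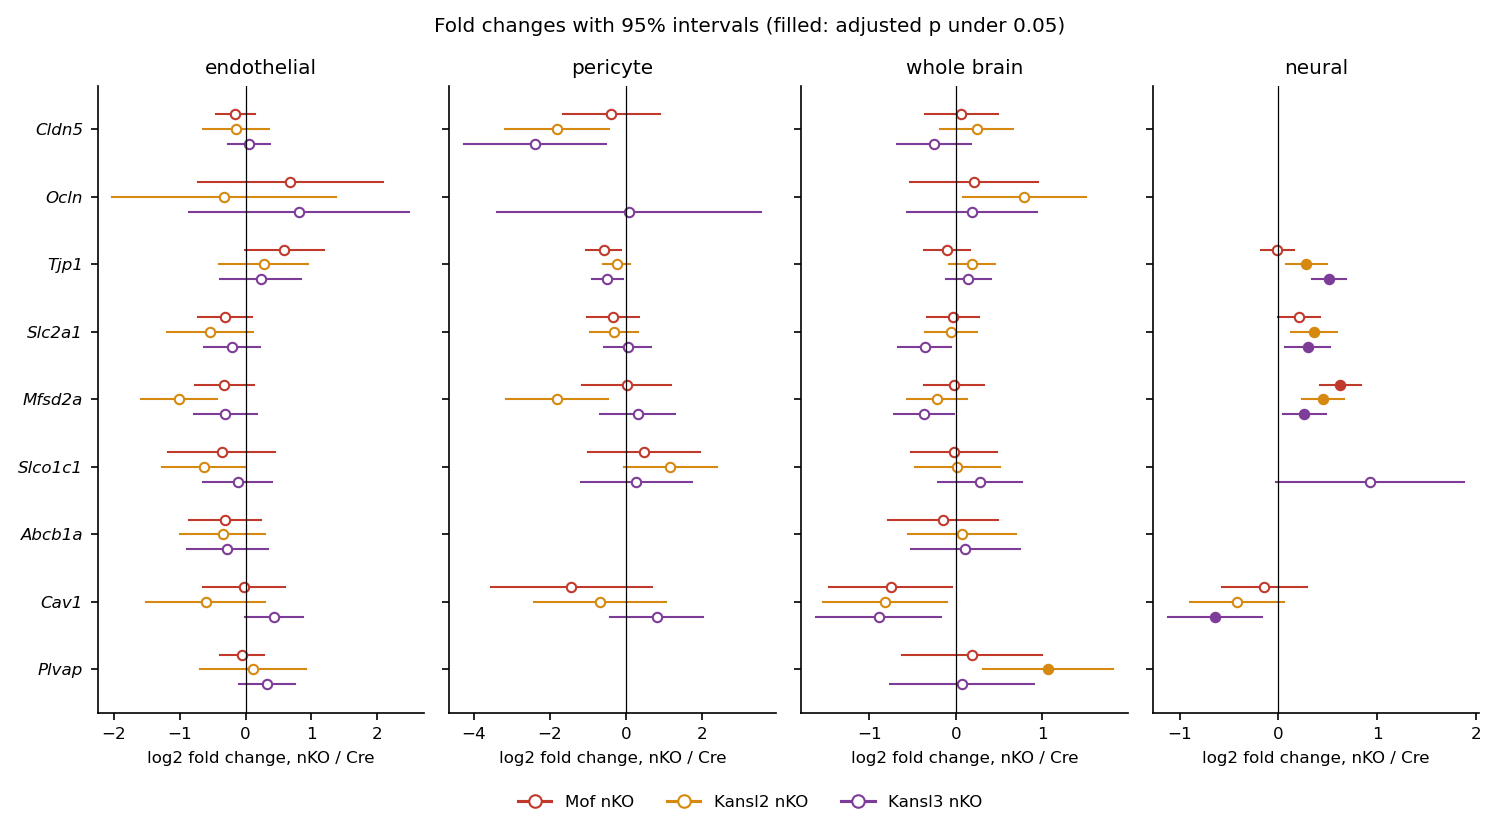
Log2 fold changes of the barrier genes against Cre in endothelial cells, pericytes, whole brain and neural cells, for the genes tested in each. Bars are 95% intervals, filled points passed an adjusted p of 0.05, and the panels have separate horizontal scales. No endothelial or pericyte point is filled, whole brain has Plvap alone, and the Mfsd2a points of neural cells are filled for all 3 knockouts.

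Microglia, sorted from Mof nKO and Cre brains, held Slc2a1 at 36.9, 88.2 and 2.71 CPM in Mof nKO and 155, 64.8 and 60.0 in Cre libraries. Cldn5 was at 0 in all 3 Mof nKO libraries and at 19.3, 0 and 0 in Cre, so its Cre mean in microglia came from 1 library. Library M689, with Slc2a1 at 2.71, held 2215701 reads, and its 10 most abundant genes took 34.5% of them. Mitochondrial reads were 16.5, 15.2 and 5.54% in Mof nKO, against 4.41 to 6.43% in Cre. Microglia markers summed to 3371 to 6470 CPM in Mof nKO and 9926 to 12413 in Cre. These levels, and the part of library quality in them, were not tested.

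The fatty acid experiment used a cell type that is not the endothelium. In its vehicle cultures the 12 pericyte markers summed to 241 to 252 CPM, against 11789 to 15067 in sorted Cre pericytes and 189 to 224 in Cre whole brain. Of these markers Kcnj8 and Higd1b were at 0 in every vehicle culture. Of 6 genes tested in cultured pericytes 4 passed, in a comparison in which 66.6 percent of 15625 genes were called, so that the share of barrier genes called was near that of all genes. The comparison was set up after the tables had been examined. Slc2a1 had 458, 477 and 413 CPM in fatty acid cultures, against 147, 152 and 156 in vehicle cultures, and rose by 1.75 ± 0.09 on the log2 scale (adjusted p = 5.18e-06, edgeR). Mfsd2a had 4.94, 5.83 and 4.49 against 2.13, 1.95 and 2.199 in vehicle, and rose by 1.47 ± 0.15 (adjusted p = 0.000124). Both lipid and glucose carriers thus stood higher in every treated culture. Abcb1a had 14.1, 11.9 and 10.98 against 7.32, 6.88 and 7.25 in vehicle, and rose by 0.98 ± 0.13 (adjusted p = 0.000471), while Abcb1b had 46.3, 75.1 and 72.4 against 48.7, 47.6 and 47.2. Cav1 had 108, 71.5 and 77.2 against 284, 221 and 238 in vehicle, and fell by 1.34 ± 0.19 (adjusted p = 0.000508).

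The junction genes moved less. Ocln had 1.004, 0.879 and 0.833 CPM in fatty acid cultures against 1.55, 1.47 and 1.29 in vehicle cultures, without overlap (-0.47 ± 0.18, adjusted p = 0.0532). Separation downward was shown by 46.7 percent of genes and upward by 27.1 percent. Tjp1 had 205, 181 and 181 against 187, 186 and 189 in vehicle (0.21 ± 0.09, adjusted p = 0.0732). Cldn5 had 0 reads in all 6 cultures, Slco1c1 had 0, 2 and 2 reads against 7, 5 and 14, and Plvap 10, 6 and 3 reads against 6, 9 and 11, too few to test. Markers of cell types differed between the cultures as well: 12 pericyte markers summed to 40.5 to 49.6 CPM in fatty acid cultures and 241 to 252 in vehicle, fibroblast markers to 150 to 174 against 657 to 660, and endothelial markers to 150 to 195 against 227 to 257. The part of these differences in the barrier gene values was not tested. Among the listed genes, 12 of 23 transporters rose and 8 fell, with Slc7a1 at 3.254 and the receptor gene Lrp8 at 2.66, and 3 of 17 junction partners rose and 10 fell, with Cldn1 at -3.69 and Jam2 at -2.44. Of 9 caveolar genes 2 rose and 5 fell, including Ehd2 (-1.73), which stabilizes caveolae beside caveolin. Wnt and transcription factor genes passed upward in 5 of 17 and downward in 10, with the Wnt target Axin2 at -2.92. Over all 15625 genes tested in culture, 5046 rose and 5358 fell.

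**Figure D5:**
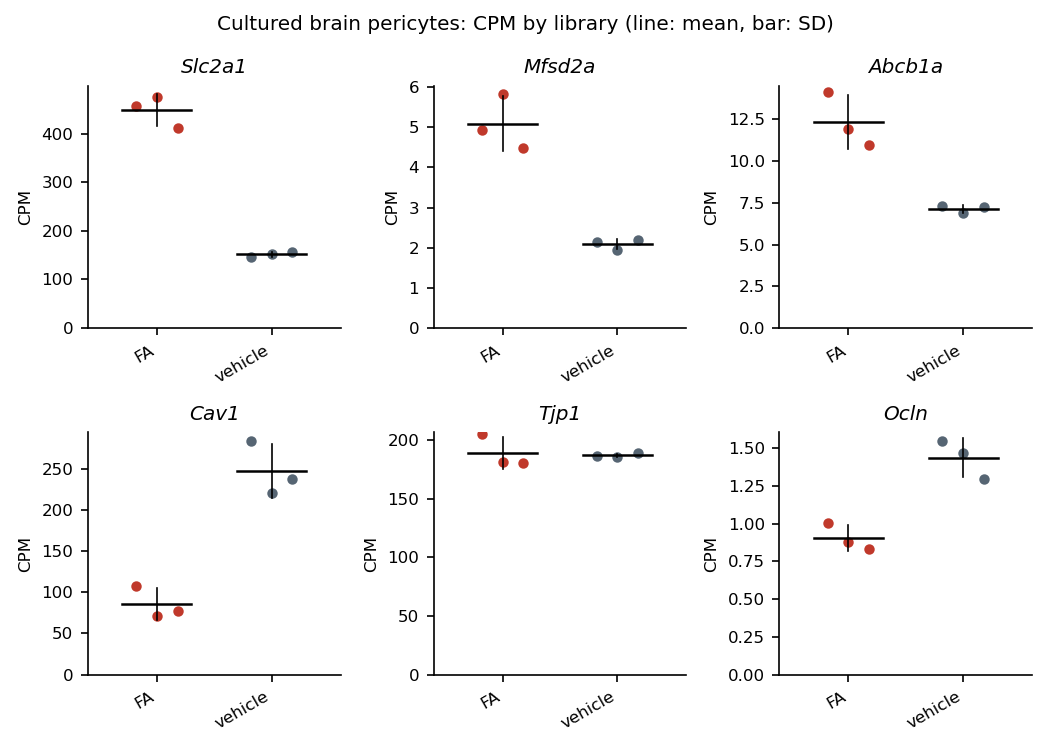
Levels of Slc2a1, Mfsd2a, Abcb1a, Cav1, Tjp1 and Ocln in cultured wild-type pericytes given fatty acids or vehicle, in CPM. Points are the 3 cultures of each group, lines are means and bars SD. Slc2a1, Mfsd2a and Abcb1a are higher and Cav1 lower in every fatty acid culture.

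The promoters of the 4 genes called in culture are shown because 3 of them rose and 1 fell there. In neural cells Mfsd2a and Slc2a1 were also both called higher under labelled Kansl2 and labelled Kansl3 nKO. The authors' deposited values call neither gene under labelled Kansl3 nKO, and both calls there were lost when some single libraries were left out. Each promoter is the 250 bases before the RefSeq start site in assembly GRCm38.p6, read 5′ to 3′ on the gene's strand. Of the 9 barrier genes 8 were matched in the RefSeq promoter table, with 10 windows between them. Capitals mark the core of the TCF/LEF site, CTTTGA, through which Wnt signaling acts on the vessel barrier, and the core of the hypoxia response element, ACGTG, on either strand; on the opposite strand these read TCAAAG and CACGT. No marked motifs overlap.
Slc2a1 (chr4:119108495-119108744, plus strand): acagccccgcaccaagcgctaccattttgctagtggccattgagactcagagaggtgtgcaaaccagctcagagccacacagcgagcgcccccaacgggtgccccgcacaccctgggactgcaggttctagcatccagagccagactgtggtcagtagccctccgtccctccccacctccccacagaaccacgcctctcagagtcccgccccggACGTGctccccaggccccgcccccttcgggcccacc
Mfsd2a (chr4:122961189-122961438, minus strand): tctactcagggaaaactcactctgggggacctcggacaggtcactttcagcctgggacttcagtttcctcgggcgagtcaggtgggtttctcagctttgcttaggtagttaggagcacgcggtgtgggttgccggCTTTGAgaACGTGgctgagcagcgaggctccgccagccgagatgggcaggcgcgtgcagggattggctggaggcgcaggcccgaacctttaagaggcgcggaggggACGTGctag
Abcb1a (chr5:8566841-8567090, plus strand): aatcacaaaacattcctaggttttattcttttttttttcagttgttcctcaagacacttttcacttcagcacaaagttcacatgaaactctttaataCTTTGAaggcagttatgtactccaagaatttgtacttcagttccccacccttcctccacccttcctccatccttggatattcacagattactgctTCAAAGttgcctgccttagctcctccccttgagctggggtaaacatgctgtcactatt
Cav1 (chr6:17306085-17306334, plus strand): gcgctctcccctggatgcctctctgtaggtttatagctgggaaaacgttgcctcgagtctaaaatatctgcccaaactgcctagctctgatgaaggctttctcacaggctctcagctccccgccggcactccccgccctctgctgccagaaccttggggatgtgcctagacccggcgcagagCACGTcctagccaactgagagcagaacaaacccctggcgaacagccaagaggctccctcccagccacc
CTTTGA was found in 2 of the 10 windows, those of Mfsd2a and Abcb1a, and in 13.8% of 32851 windows of the same length over the genome. ACGTG was found in 3, those of Slc2a1, Mfsd2a and the first Cav1 window, and in 16.6% of all windows. The ETS core CCGGAA, to which endothelial transcription factors of the ETS family bind, was found in 1, a window of Ocln, and in 12.03% of all. The 3 genes that rose in culture share no single one of these motifs. A match is a description of letters, not of a bound site.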

How the data were processed

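The deposited whole-brain and cultured-pericyte tables hold read counts per Ensembl gene. For sorted cells the authors deposited counts divided by DESeq2 size factors, a normalized signal, from which whole reads were recovered for 100% of values in 68 columns (tolerance 0.01). Their comparison tables, as deposited, hold log2 fold changes with adjusted p-values. The submitters' processing notes name STAR, featureCounts, DESeq2 and mm10, without versions. The 21 ChIP samples were not analysed here.

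Counts were tested with edgeR 4.0.16 (quasi-likelihood, TMM, filterByExpr, all 12 whole-brain libraries in 1 fit), and sorted-cell values with limma 3.58.1 with a mean-variance trend, on the log2 of value plus 1. Genes averaging under 10 were dropped, and fold changes of low genes are understated on this scale. Benjamini-Hochberg adjustment ran over all genes tested, with a threshold of 0.05, on R 4.3.3. Scripts were tested on simulated data. DESeq2 1.42.0, other scalings, filters and pseudocounts, edgeR on the recovered reads, and leaving out each library were the alternatives. Fits of all libraries of a cell type together, leaving out endothelial Cre130 with K2-196, and the whole culture comparison were chosen after seeing the data.

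Levels are CPM, counts scaled by a library's total, with no correction for transcript length, so they are not compared between genes. Counting precision is set by the reads, and 3 reads were taken as the limit of a count of 0, for counting error only. The members and gene lists were chosen with earlier results of these data known. Besides the 9 members, listed genes were named from those with the smallest p in each comparison, among those past the threshold where any passed. The 3 genes most correlated with each of Mfsd2a, Cldn5 and Plvap are named too. Pecam1 is named as an endothelial marker and Abcb1b as the paralog of Abcb1a. One endothelial Mof nKO column, M436, matches no sample title and was placed by its group. Among 72 pairs of libraries none agreed within sampling noise. Culture replicate numbers were checked for pairing: deviations of same-numbered cultures correlated at 0.422, 0.249 and 0.0835 over 10657 genes, so the numbers were read as names only.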

Additional observations from a re-analysis of the deposited data

Results flagged for a closer look

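Of 36 groups of barrier gene levels with 4 libraries, 2 held a library far from the others by Dixon's 95% critical value. That value is set to flag about 1 group in 20 by chance for smoothly distributed levels, a rate that need not hold for a gene at 0 in most libraries. In labelled Kansl3 nKO pericytes, Abcb1a was at 0.564 CPM in library K3_339 and at 0 in the other 3. In the same group Slco1c1 was at 1.24 CPM in library K3_327, with the other 3 between 7.62 and 8.41. The Abcb1a level rests on 2 reads.

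Under labelled Kansl3 nKO, Slc2a1 was 0.30 higher than Cre on the log2 scale in neural cells, where all 3 libraries lay above all 3 Cre libraries, and -0.36 in whole brain, where all 3 lay below. Upward separation was shown by 34.8 percent of genes in neural cells, and downward separation by 29.6 percent in whole brain. The neural call was lost without Cre184, Cre188 or K3_356, and the authors' deposited DESeq2 values do not make it (adjusted p = 0.0728). The whole-brain difference did not pass. The difference between the neural and whole-brain effects was not tested, and the samples were made into values on different scales.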

How the results depend on the processing

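Across the alternatives run, the absence of calls among barrier genes held in endothelial cells under each setting and left-out library, and the 4 calls in culture held under each. The whole-brain results depended most on the processing. Under labelled Kansl2 nKO, 1 barrier gene was called, against 0 by DESeq2 (Plvap 1.07, adjusted p = 0.061), 0 with only the 6 libraries compared, 2 without a filter on low counts, and 3 when scaled to endothelial markers, where Slc2a1 (-0.46), Mfsd2a (-0.60) and Cav1 (-1.28) passed and Plvap did not. That scaling also turned Cldn5 to -0.17, Tjp1 to -0.21, Abcb1a to -0.35 and Slco1c1 to -0.40 under labelled Kansl2 nKO, Cldn5 to -0.10 under Mof nKO and Plvap to -0.030 under labelled Kansl3 nKO. Under labelled Kansl3 nKO, 0 barrier genes were called, against 1 by DESeq2 (Cav1, adjusted p = 0.045), 2 without a filter, 2 with only the 6 libraries and 2 when scaled to endothelial markers. Under Mof nKO, no filter called 1636 genes, against 972, and 1 barrier gene (Cav1, -0.75, adjusted p = 0.028), and the 6 libraries alone gave Slco1c1 at 0.00046. For labelled Kansl3 over labelled Kansl2 nKO, 6 genes were called, against 96 by DESeq2 and 848 without a filter. The cause of these changes was not tested.

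In endothelial cells 0 genes were called under each knockout, against 1 with a pseudocount of 8 and 1 in a fit of all endothelial libraries under Mof nKO, 2 in that fit under labelled Kansl2 nKO, and 2 and 9 in the same order under labelled Kansl3 nKO. Cav1 under Mof nKO was at 0.063 by edgeR and 0.087 in the fit of all libraries. In pericytes, Mof nKO had 0 calls, against 11 with a pseudocount of 8, 1 without a filter, 9 by edgeR on reads, 5 with TMM scaling and 25 in the fit of all libraries, and Mfsd2a was at -0.00468, -0.021 and -0.023 in the last 3. The fit of all libraries called 128 genes under labelled Kansl2 nKO, against 318, and 297 under labelled Kansl3 nKO, against 446, where no filter called 286. In neural cells, Tjp1 under labelled Kansl2 nKO missed the threshold with TMM scaling (0.27, adjusted p = 0.051).

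Leaving out 1 library at a time moved the count of genes called in whole brain to 170 to 1253 under Mof nKO, 2843 to 4153 under labelled Kansl2 nKO, 3638 to 5254 under labelled Kansl3 nKO, 439 to 1793 for labelled Kansl2 over Mof nKO, 702 to 1924 for labelled Kansl3 over Mof nKO and 2 to 1041 for labelled Kansl3 over labelled Kansl2 nKO. In endothelial cells under labelled Kansl3 nKO it gave 0 to 16, and in pericytes 0 to 194 under Mof nKO, 110 to 353 under labelled Kansl2 nKO and 150 to 495 under labelled Kansl3 nKO. Barrier genes called went to 0 to 1 under labelled Kansl2 nKO and 0 to 3 under labelled Kansl3 nKO in whole brain, 0 to 2 for labelled Kansl3 over labelled Kansl2 nKO, 0 to 1 in pericytes under labelled Kansl2 nKO, and 1 to 3 and 1 to 5 in neural cells under labelled Kansl2 and labelled Kansl3 nKO. The Plvap call in whole brain was lost without Cre_18 (1.08, adjusted p = 0.088), Cre_19 (0.82, 0.13), K2_63 (0.71, 0.20) or K2_70 (1.07, 0.074), and Cav1 passed without K2_63 (-1.28, adjusted p = 0.020). Under labelled Kansl3 nKO, Slc2a1 (-0.48, adjusted p = 0.026), Mfsd2a (-0.50, 0.039) and Cav1 (-1.09, 0.031) passed without Cre_19, and Cav1 (-1.16, 0.039) without K3_117. Cldn5 (-0.70, adjusted p = 0.044) and Slc2a1 (-0.47, 0.048) passed for labelled Kansl3 over labelled Kansl2 nKO without K2_68, pericyte Cldn5 (-2.38, 0.046) under labelled Kansl2 nKO without Cre_139, neural Slco1c1 (1.29, 0.027) under labelled Kansl3 nKO without K3_349, and Ocln in culture (-0.58, 0.019) without fatty acid culture 1.

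Of 101 barrier gene results, 30 changed sign with 1 library left out, 0 of them called. In whole brain under Mof nKO the ranges were Mfsd2a -0.13 to 0.084, Cldn5 -0.15 to 0.22, Slc2a1 -0.14 to 0.062, Ocln -0.012 to 0.41, Abcb1a -0.29 to 0.025, Slco1c1 -0.27 to 0.17 and Plvap -0.055 to 0.47. Under labelled Kansl2 nKO they were Slc2a1 -0.19 to 0.11, Abcb1a -0.11 to 0.35 and Slco1c1 -0.18 to 0.21, and under labelled Kansl3 nKO Ocln -0.060 to 0.37, Abcb1a -0.13 to 0.28 and Plvap -0.19 to 0.34. Between knockouts Slc2a1 was -0.14 to 0.13 for labelled Kansl2 over Mof nKO and Plvap -0.39 to 0.030 for labelled Kansl3 over Mof nKO. In endothelial cells the ranges were Ocln -0.13 to 1.11, Plvap -0.15 to 0.018 and Cav1 -0.23 to 0.19 under Mof nKO, Ocln -1.14 to 0.23 and Plvap -0.27 to 0.65 under labelled Kansl2 nKO, and Cldn5 -0.023 to 0.11, Ocln -0.00116 to 1.24 and Slco1c1 -0.31 to 0.02 under labelled Kansl3 nKO. In pericytes they were Mfsd2a -0.41 to 0.44 under Mof nKO, Cav1 -1.54 to 0.10 under labelled Kansl2 nKO, and Mfsd2a -0.13 to 0.55, Slc2a1 -0.086 to 0.30 and Ocln -1.03 to 1.12 under labelled Kansl3 nKO. In neural cells under Mof nKO they were Tjp1 -0.061 to 0.057 and Cav1 -0.34 to 0.030.

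With the replicate number as a block in culture, 10458 genes and the same 4 barrier genes passed, with Slc2a1 at 1.75, Mfsd2a at 1.46, Abcb1a at 0.97 and Cav1 at -1.36, and Ocln (-0.48, adjusted p = 0.0907) and Tjp1 (0.20) did not. Fatty acid culture 2 deviated most like vehicle culture 3 (correlation 0.418). The other groups compared share no replicate numbers. Depth limits Plvap in whole brain (8 to 51 reads) and Ocln, Abcb1a and Plvap in pericytes and neural cells, where many libraries held fewer than 10 reads.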
